A study of Mus musculus with 8 samples.

Results

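The 44 interferon-stimulated genes described here are genes whose transcription is known to be switched on by type I, type II or type III interferons. They were chosen by a list of gene symbols and by no threshold on the values, and all 44 were found among the 15047 genes with a deposited value. Total RNA from the pancreas of 8 male mice had been sequenced to compare lean animals with 2 models of obesity, each mouse being a separate sample. The 3 LFD mice and the 3 HFD mice were C57BL/6 WT animals that received a low-fat or a high-fat diet, the latter with 60% of calories from fat, for 10 weeks from 4 weeks of age. The 2 ob/ob mice (C57BL/6J; ob/ob) lacked leptin, were also 4 weeks old at the start and received standard chow, so that genotype and chow both separated them from LFD and cannot be told apart. According to the study, but not to the sample labels, all these mice carried an orthotopic transplant of mT organoids, cultures grown from the neoplastic pancreas of genetically engineered mice, and how much of each tissue was graft was not given in the sources used here. Expression is given as rlog values, a log2 measure that the authors had already adjusted for sequencing depth. A difference of 1 is therefore a 2-fold change in these values, in which differences at low expression are shrunk. Levels of different genes are not comparable because the values are not divided by transcript length.

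Interferons bind receptors on the cell surface and activate the JAK kinases, which phosphorylate STAT proteins. STAT2 acts with IRF9 in the complex ISGF3, which enters the nucleus and binds the interferon-stimulated response element (ISRE) in the promoters of its targets, whereas the response to interferon gamma runs through another element called GAS. The targets include sensors of foreign RNA and DNA, enzymes that block translation or degrade RNA, the ubiquitin-like protein ISG15, and GTPases that attack intracellular pathogens. Several of them, such as STAT2, IRF7 and IRF9, are part of the pathway itself, so that a first signal is amplified.

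The ISRE letters were read in the RefSeq promoters (GRCm38.p6), each of which spans 250 bases before to 50 bases after a start site. A promoter was listed for 34 of the 44 genes. The core GAAANNGAAA, searched on both strands, was found in 18 of these 34 genes (52.9%), whereas 3.99% of the 27025 mouse genes in the same table, and 3.44% of their 32851 promoters, held it. The longer form GAAANNGAAACT, which overlaps the core, was found in 10 of the 34 (29.4%) and in 0.303% of all genes. The GAS letters TTCNNNGAA, also read on both strands, were found in 9 (26.5%), against 9.55% of all genes. The stretches below were taken from genes of different roles and from genes with different values in the obese mice. Each is 60 bases long and written in the direction of transcription, with the core in capitals, as GAAANNGAAA or as its reverse complement TTTCNNTTTC, and overlapping copies form a longer run of capitals.
Stat2, chr10:128270251-128270310, plus strand: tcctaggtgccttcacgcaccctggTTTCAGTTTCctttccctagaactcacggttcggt
Isg15, chr4:156200856-156200915, minus strand: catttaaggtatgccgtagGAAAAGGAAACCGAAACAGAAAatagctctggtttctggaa
Ifit1, chr19:34640769-34640828, plus strand: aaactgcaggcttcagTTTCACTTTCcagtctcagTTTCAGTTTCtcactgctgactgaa
Oas3, chr5:120777700-120777759, minus strand: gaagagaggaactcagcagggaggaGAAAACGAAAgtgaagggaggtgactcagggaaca
Gbp7, chr3:142530258-142530317, plus strand: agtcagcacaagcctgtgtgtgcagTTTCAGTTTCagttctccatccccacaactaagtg
Igtp, chr11:58199496-58199555, plus strand: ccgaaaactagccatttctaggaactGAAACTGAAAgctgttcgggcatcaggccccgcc
Irgm2, chr11:58214888-58214947, plus strand: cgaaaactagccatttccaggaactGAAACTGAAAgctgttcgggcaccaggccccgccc
Rsad2, chr12:26456538-26456597, minus strand: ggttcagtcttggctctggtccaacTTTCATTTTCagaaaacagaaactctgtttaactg
Bst2, chr8:71537565-71537624, minus strand: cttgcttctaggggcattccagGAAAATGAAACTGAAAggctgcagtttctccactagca
Isg15 held 3 copies of the core in this stretch, Ifit1 and Bst2 held 2 copies each, and the other stretches held 1 copy. In Stat2 the core lay 222 to 213 bases before the start site, and in Isg15 its copies lay 78 to 57 bases before it. Genes with and without the core had similar differences. The median difference between HFD and LFD was 0.62 in the 18 genes whose promoter held it and 0.57 in the 16 genes whose promoter did not, and for ob/ob against LFD these medians were 0.54 and 0.5.

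The interferon-stimulated genes varied together between mice of the same group. After subtracting the LFD mean of each gene, the median over the 44 genes was -0.03, 0.17 and -0.12 in LFD replicates 1, 2 and 3. It was -0.08, 0.97 and 0.91 in HFD replicates 1, 2 and 3, and 0.34 and 0.82 in ob/ob replicates 1 and 2. HFD replicate 1 thus lay among the LFD mice, ob/ob replicate 1 lay above them, and HFD replicates 2 and 3 and ob/ob replicate 2 were the highest. The median over all genes, computed in the same way, stayed between -0.03 and 0.07 in every mouse. Of the 44 genes, 8 lay above all LFD mice in HFD replicate 1, 39 in HFD replicate 2, 40 in HFD replicate 3, 22 in ob/ob replicate 1 and 37 in ob/ob replicate 2. The corresponding shares of all genes were 26.4%, 38.2%, 39.7%, 31.2% and 41.2%. LFD replicate 2 exceeded the other LFD mice in 30 of the 44 genes (34.6% of all genes), so it set this limit for most of them. In HFD the spread between mice was accordingly wide, with a median SD over the 44 genes of 0.59, against 0.35 for all genes, whereas in LFD it was 0.26 and 0.23. Most of these genes (29 of 44, 65.9%) exceeded every LFD mouse in HFD replicates 2 and 3 but not in HFD replicate 1. This pattern was found in 17.1% of all genes, and the ob/ob mice did not enter it.

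**Figure D1:**
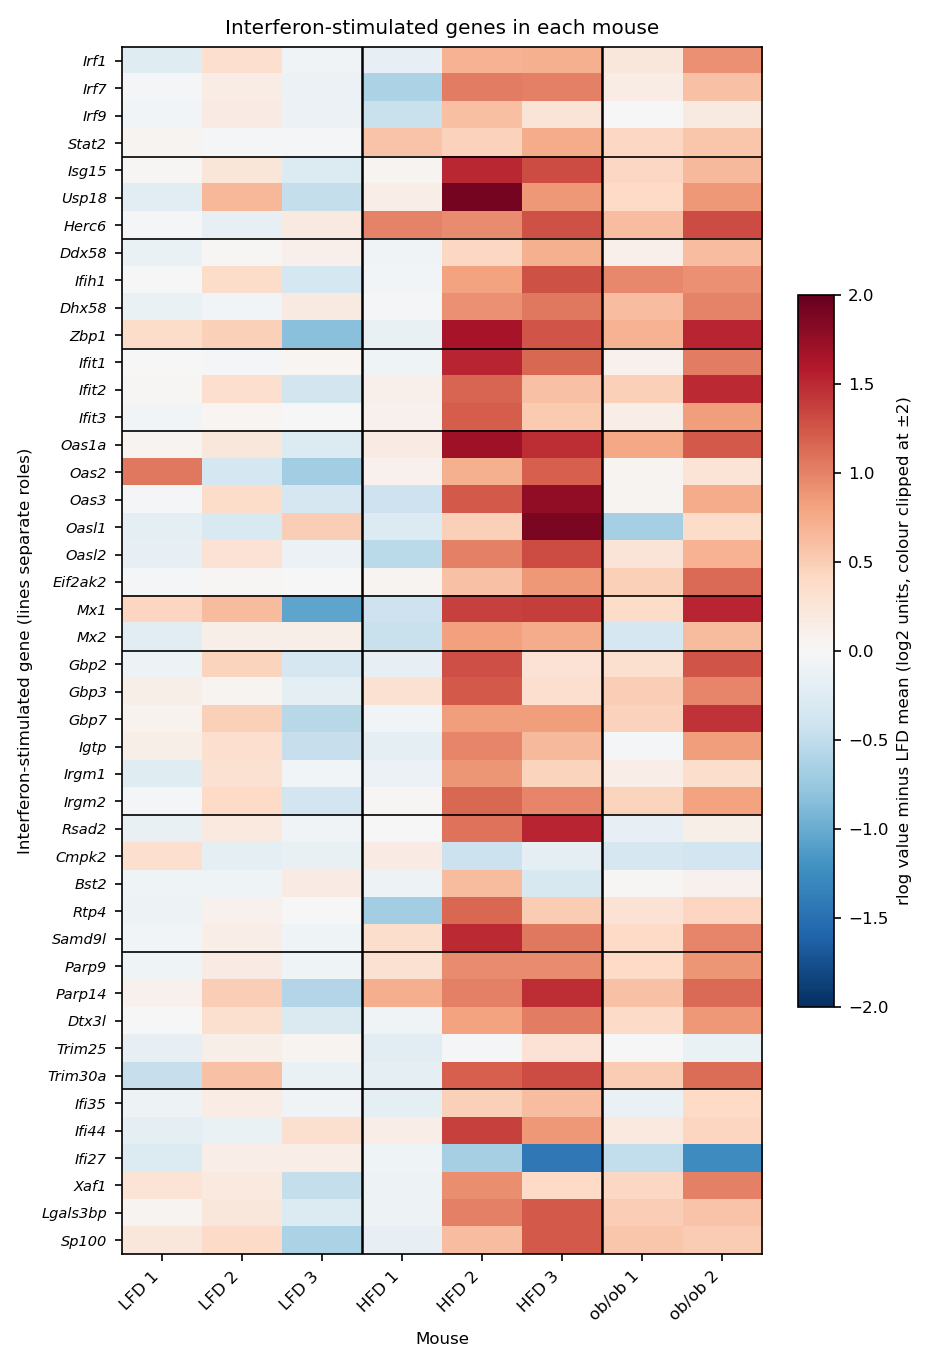
Heat map of the 44 interferon-stimulated genes (vertical axis, grouped by role) in the 8 mice (horizontal axis). Colour gives the rlog value minus the LFD mean of the gene in log2 units, with red above and blue below that mean. HFD replicate 1 resembles the LFD mice in most genes, HFD replicates 2 and 3 and ob/ob replicate 2 are mostly red, and Ifi27 is lowest in the same 3 mice.

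The levels of cell type markers also differed between mice. The 3 mice with the highest medians above had the lowest acinar shares, whereas the macrophage and neutrophil sums did not follow that order. The 20 acinar markers, mostly digestive enzymes, made up 59.3% to 61.5% of the summed linear values in LFD, 58.3%, 39.3% and 20.6% in HFD replicates 1, 2 and 3, and 55.5% and 23.2% in ob/ob replicates 1 and 2. All 20 were present, matching the labelled tissue. Such sums weigh genes with high values most. In the acinar list this was Amy2a5, at rlog values of 23.58 to 24.32 in LFD. In the macrophage list that follows it was Lyz2, at 12.61 to 13.20 in LFD. The summed linear level of the 9 macrophage markers, all present, ranged from 10600 to 14700 in LFD. It was 18100, 35200 and 19500 in HFD replicates 1, 2 and 3, and 27700 and 50900 in ob/ob replicates 1 and 2. Of these 9, 6 were higher in HFD and all 9 in ob/ob at an unadjusted p-value under 0.05, against 11.5% and 11.6% of all genes. The 7 neutrophil markers present, of 8 listed, summed to 307 to 488 in LFD. Their sums were 833, 1690 and 2780 in HFD replicates 1, 2 and 3, and 891 and 784 in ob/ob replicates 1 and 2. The 7 fibroblast markers, all present, summed to 11500 to 14000 in LFD. Their sums were 17800, 27200 and 41400 in HFD replicates 1, 2 and 3, and 24900 and 54900 in ob/ob replicates 1 and 2. The summed level of the 6 T cell markers present, of 7 listed, was 80.3 to 262 in LFD, 120 to 189 in HFD and 160 to 174 in ob/ob. That of the 5 B cell markers was 505 in LFD replicate 2 and 57.3 to 111 in the other mice. The 5 markers of plasmacytoid dendritic cells, known as strong producers of interferon, summed to 65.3 to 148, 98.1 to 156 and 49.3 to 65.2. Ly6d weighed most in this sum in HFD replicates 1 and 2, at rlog values of 6.91 and 6.88. In HFD 3 of the 5 had a higher mean, Siglech and Pacsin1 had a lower one, and the median difference was 0.02. In ob/ob it was -0.57. None of the markers with a value was listed at 0, and Ly6g and Trac were not analysed here. In bulk tissue, a change in the number of cells of a type and a change in RNA per cell cannot be told apart, and the part of these cell types in the results below was not tested beyond the adjustment for acinar genes given with each comparison.

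**Figure D2:**
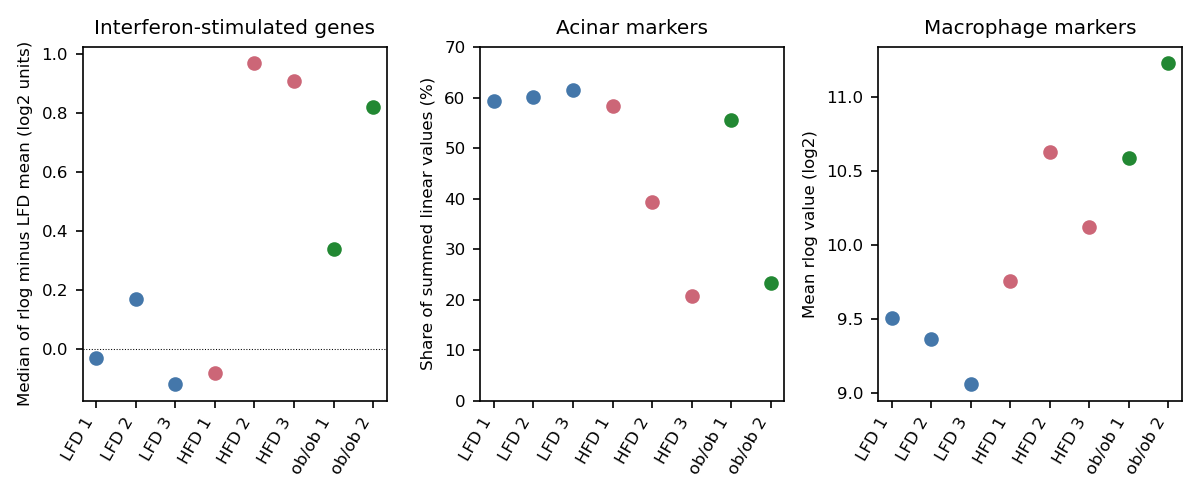
The interferon-stimulated genes beside acinar and macrophage markers in each of the 8 mice (horizontal axes). The left panel gives the median over 44 genes of the rlog value minus the LFD mean in log2 units, the middle panel the share of acinar markers in the summed linear values in percent, and the right panel the mean rlog value of the macrophage markers. The 3 mice with the highest medians, at 0.82 to 0.97, are the 3 with the lowest acinar shares, at 20.6% to 39.3%.

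In HFD compared to LFD, 42 of the 44 interferon-stimulated genes had a higher mean (95.5%), as did 52.4% of all genes. The median difference was 0.61, against 0.03 for all genes, and it ranged from -0.72 in Ifi27 to 1.12 in Oas1a. By limma with Benjamini-Hochberg adjustment over all 15047 genes, none of the 44 genes passed an adjusted p-value of 0.05, nor did any other gene (0.0% of all genes), and the smallest adjusted p-value among the 44 was 0.176. At an unadjusted p-value under 0.05, 8 genes were higher (18.2%), namely Herc6, Isg15, Oas1a, Parp14, Parp9, Rsad2, Samd9l and Stat2, and none was lower. For all genes these shares were 11.5% and 8.35%. The 3 HFD mice all lay above the 3 LFD mice in 8 genes (18.2%), against 12.9% of all genes. These were Stat2, Herc6, Ifit3, Eif2ak2, Gbp3, Samd9l, Parp9 and Parp14, and in no gene did all HFD mice lie below LFD (12.3% of all genes). When each mouse was left out in turn, 19 genes passed the adjusted threshold without HFD replicate 1, 18 higher and Ifi27 lower (43.2%), as did 18.7% of all genes, and the median difference was 0.94. Since that mouse is the one in which these genes lay at the LFD level, a larger difference without it follows from leaving it out and is no separate evidence. The count of genes higher at the unadjusted threshold became 35 without HFD replicate 1 (19.8% of all genes) and 5 without HFD replicate 2 (6.04% of all genes). When the fit included the average of the acinar genes as a covariate, the median difference was 0.15 and 5 genes were higher at the unadjusted threshold (6.02% of all genes). Without the 2 mice poorest in acinar products, HFD replicate 3 and ob/ob replicate 2, it was 0.41, with 6 genes higher (7.98% of all genes).

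In ob/ob compared to LFD, 39 of the 44 genes had a higher mean (88.6%, against 53.1% of all genes). Their median difference was 0.53, against 0.04 for all genes, with a range from -0.88 in Ifi27 to 1.11 in Zbp1. None passed the adjusted threshold in limma (0.0% of all genes passed), and the smallest adjusted p-value among them was 0.2. At the unadjusted threshold 8 were higher (18.2%, against 11.6% of all genes) and none was lower (7.18% of all genes). These were Eif2ak2, Gbp3, Herc6, Ifih1, Ifit2, Parp14, Parp9 and Stat2. Both ob/ob mice lay above the 3 LFD mice in 22 genes (50.0%, against 24.1% of all genes) and below them in Cmpk2 and Ifi27 (4.55%, against 21.8%). Leaving out either ob/ob mouse leaves 1 animal in that group, which is then assumed to vary like the other groups. Without ob/ob replicate 2 the median difference was 0.34 and no gene was called in either direction at the unadjusted threshold (4.03% of all genes higher, 0.964% lower). Without ob/ob replicate 1 the median was 0.82, with 8 genes higher and 1 lower (14.4% and 11.2% of all genes). The count of genes higher was 2 without LFD replicate 1 (8.61% of all genes), 2 without LFD replicate 3 (7.01%) and 16 without HFD replicate 1 (15.4%), a mouse that enters here only through the shared estimate of the spread. With the acinar covariate the median difference was 0.07 and 1 gene was higher (6.35% of all genes), and without the 2 acinar-poor mice it was 0.34, also with 1 gene higher (4.9%).

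The mean of both obese groups was compared with LFD as well, and it shares the LFD mice with the comparisons above. The median difference of the 44 genes was 0.58, and 41 had a higher mean (93.2%, against 53.5% of all genes). None passed the adjusted threshold by limma (0.0% of all genes), Herc6 coming nearest at 0.0975. At the unadjusted threshold 11 were higher (25.0%, against 14.5%), namely Dhx58, Eif2ak2, Gbp3, Herc6, Ifih1, Ifit2, Oas1a, Parp14, Parp9, Samd9l and Stat2, and Ifi27 was lower (2.27%, against 10.9%). In 8 genes, the same 8 as for HFD alone, all 5 obese mice exceeded all LFD mice (18.2%, against 9.4% of all genes), and in none did all 5 lie below them (9.05%). A further 14 genes exceeded them in 4 of the 5 obese mice (13.2% of all genes), and 14 in 3 of 5 (12.1%). Gbp2 and Rsad2 did so in 2 mice (11.3% of all genes), Oas2, Oasl1, Bst2 and Trim25 in 1 (17.9%), and Cmpk2 and Ifi27 in none (36.1%). Without HFD replicate 1, 19 genes passed the adjusted threshold, as did 22.1% of all genes, and without ob/ob replicate 1 Herc6 alone passed it, at 0.0468, a smaller share of the 44 than the 3.16% of all genes that passed. The unadjusted count of genes higher was 34 without HFD replicate 1 (21.2% of all genes), 5 without LFD replicate 3 (8.44%) and 5 without ob/ob replicate 2 (8.94%), and Ifi27 was not called without LFD replicate 2, LFD replicate 3 or ob/ob replicate 2. With the acinar covariate the median difference was 0.14, 2 genes were higher (6.73% of all genes) and Ifi27 was not called. Without the 2 acinar-poor mice 4 genes were higher (8.36%) and Ifi27 was again not called.

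**Figure D3:**
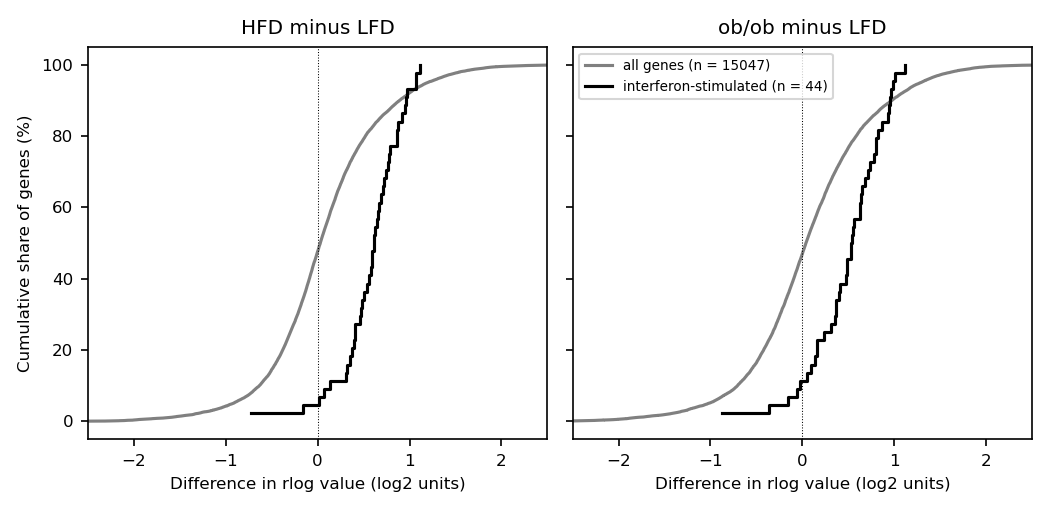
Cumulative share of genes (vertical axes, percent) by difference in rlog value (horizontal axes, log2 units, shown from -2.5 to 2.5) for HFD minus LFD on the left and ob/ob minus LFD on the right. The black curve of the 44 interferon-stimulated genes lies to the right of the grey curve of all 15047 genes over most of its course, with medians of 0.61 against 0.03 and 0.53 against 0.04, and no member exceeds 1.12.

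Among the transcription factors, Stat2 separated obese from lean mice while the other 3 followed the pattern of the mice. Stat2, the partner of IRF9 in ISGF3, had rlog values of 7.20, 7.11 and 7.11 in the LFD mice, 7.71, 7.60 and 7.88 in the HFD mice, and 7.56 and 7.70 in the ob/ob mice. No obese mouse overlapped the lean range, and the SD within HFD (0.14) was the smallest of the 44 genes in that group. The difference was 0.59 (SE 0.17, adjusted p = 0.181) for HFD and 0.49 (SE 0.19, adjusted p = 0.246) for ob/ob. Irf7, which drives the second wave of type I interferon, read 6.39, 6.56 and 6.30 in LFD, 5.77, 7.44 and 7.42 in HFD, and 6.56 and 7.00 in ob/ob. HFD replicate 1 was the lowest of the 8 mice and HFD replicates 2 and 3 the highest, so that the difference between the HFD mean (6.87, SD 0.96) and the LFD mean (6.41, SD 0.13) was smaller than the spread in HFD. With acinar genes as a covariate the Irf7 difference changed sign, to -0.16 in HFD and -0.31 in ob/ob. Irf9 showed the same order with a smaller range, at 7.92, 8.13 and 7.86 in LFD, 7.52, 8.57 and 8.23 in HFD, and 7.97 and 8.15 in ob/ob. Irf1, a factor induced mainly by interferon gamma through GAS, was at 8.25, 8.83 and 8.43 in LFD, 8.33, 9.19 and 9.21 in HFD, and 8.73 and 9.41 in ob/ob, and its groups overlapped.

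The ISG15 system attaches a ubiquitin-like tag to newly made proteins, and its median difference was 0.98 in HFD and 0.64 in ob/ob over 3 genes. Herc6, the ligase that joins ISG15 to its targets in mice, read 5.83, 5.70 and 6.04 in LFD, 6.85, 6.81 and 7.13 in HFD, and 6.48 and 7.17 in ob/ob. The gap between the highest lean and the lowest obese mouse included HFD replicate 1, in which most other interferon-stimulated genes lay at the lean level. Herc6 was 2.10-fold higher in HFD (difference 1.07, SE 0.25, adjusted p = 0.176) and 1.96-fold higher in ob/ob (0.97, SE 0.28, adjusted p = 0.200). Isg15, the tag itself, was at 4.56, 4.77 and 4.26 in LFD, 4.58, 6.03 and 5.83 in HFD, and 4.94 and 5.18 in ob/ob. Here HFD replicate 1 lay among the lean mice and both ob/ob mice lay above them, with a difference of 0.95 (SE 0.40, adjusted p = 0.241) in HFD. Usp18, the protease that removes ISG15 and restrains the type I receptor, was at 4.71, 5.58 and 4.45 in LFD, 5.05, 6.84 and 5.79 in HFD, and 5.32 and 5.78 in ob/ob, and LFD replicate 2 exceeded HFD replicate 1 and ob/ob replicate 1.

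**Figure D4:**
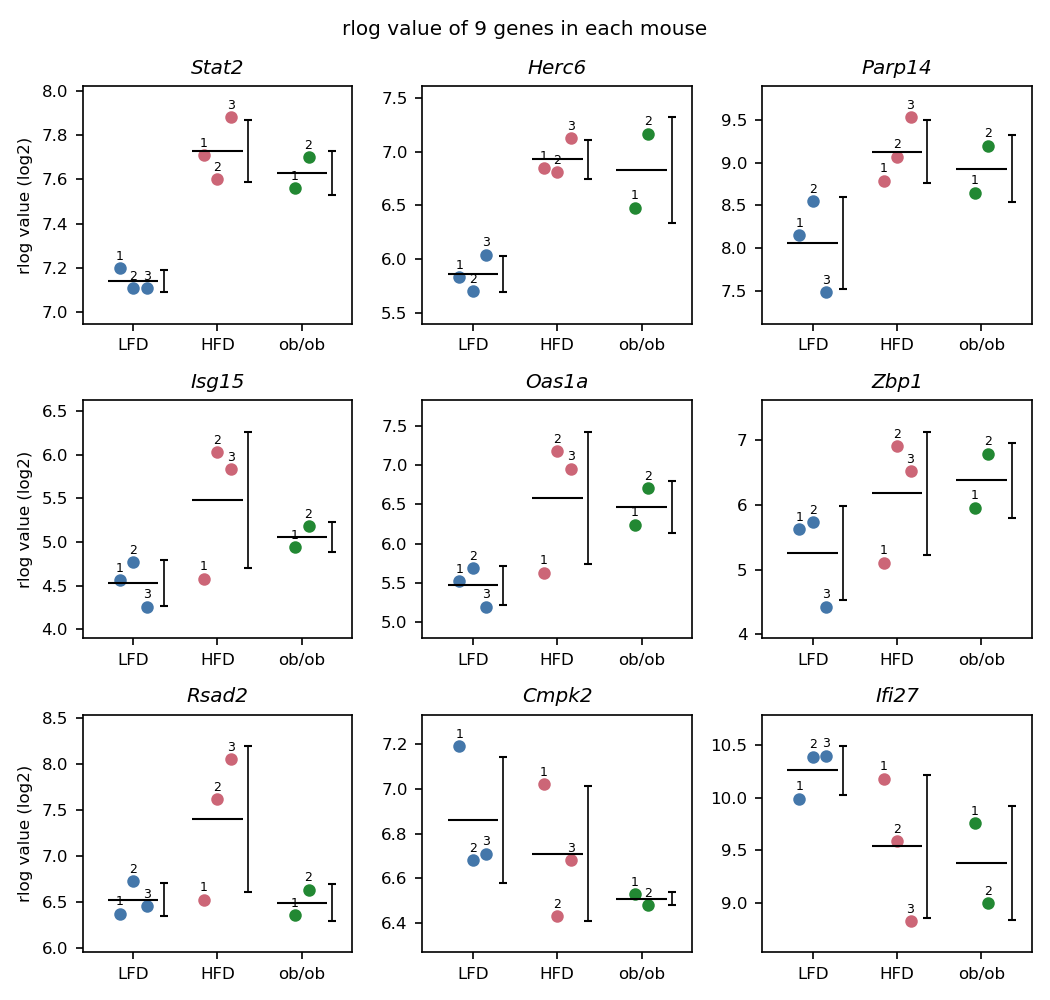
The rlog values (vertical axes, log2 scale, each panel with its own range) of 9 interferon-stimulated genes in LFD, HFD and ob/ob mice. Points are mice, numbered by replicate, horizontal lines are group means and bars span 1 SD to each side of the mean. Stat2, Herc6 and Parp14 separate all obese from all LFD mice, Isg15, Oas1a and Zbp1 leave HFD replicate 1 among the LFD mice, Rsad2 is high in HFD replicates 2 and 3 only, and Cmpk2 and Ifi27 are lower in both ob/ob mice than in LFD.

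Sensors of foreign nucleic acid were higher on average in both models, with median differences of 0.66 in HFD and 0.87 in ob/ob over 4 genes. In ob/ob all 4 lay above the LFD mice in both animals, as did 24.1% of all genes. In HFD none of the 4 lay above LFD in all mice (12.9% of all genes). Ifih1 encodes MDA5, which recognises long double-stranded RNA. It was at 7.23, 7.60 and 6.88 in LFD, 7.17, 8.03 and 8.51 in HFD, and 8.19 and 8.14 in ob/ob, a difference of 0.93 (SE 0.38, adjusted p = 0.250) for ob/ob. Zbp1, which binds Z-form nucleic acid and can start necroptosis, had the largest difference from LFD in ob/ob. Its values were 5.63, 5.73 and 4.43 in LFD, 5.11, 6.91 and 6.52 in HFD, and 5.96 and 6.79 in ob/ob. LFD replicate 3 was far below the other lean mice, and the ob/ob difference of 1.11 had an SE of 0.60 (adjusted p = 0.327). It was 0.38 with acinar genes as a covariate and 0.70 without the acinar-poor mice. Dhx58 (LGP2) was at 4.83 to 5.14 in LFD and at 5.57 and 5.95 in ob/ob, and Ddx58 (RIG-I) differed by 0.36 in each model.

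The IFIT proteins bind viral RNA that lacks the methyl marks of host messages. Ifit2 was at 6.60, 6.92 and 6.21 in LFD, 6.68, 7.74 and 7.16 in HFD, and 7.06 and 8.07 in ob/ob, with a difference of 0.62 (SE 0.36) in HFD and 0.99 (SE 0.41, adjusted p = 0.252) in ob/ob. The ob/ob difference was 0.55 with the acinar covariate and 0.48 without the acinar-poor mice. Ifit3 was the member of the family above LFD in all 5 obese mice, with 6.52 to 6.61 in LFD, 6.65, 7.78 and 7.10 in HFD, and 6.70 and 7.40 in ob/ob, although HFD replicate 1 exceeded the highest LFD mouse only slightly. Ifit1 was nearly constant in LFD (5.81 to 5.89) and reached 7.38 and 7.00 in HFD replicates 2 and 3 and 6.88 in ob/ob replicate 2, whereas HFD replicate 1 (5.76) and ob/ob replicate 1 (5.93) stayed close to LFD. The 3 genes lie side by side on chromosome 19, from 34550550 to 34650009, and as similar genes they can share reads.

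The oligoadenylate synthetases make a messenger that activates the nuclease RNase L, and the kinase PKR (Eif2ak2) stops translation on double-stranded RNA. Oas1a had the largest difference of all 44 genes in HFD. It was at 5.52, 5.69 and 5.20 in LFD, 5.63, 7.17 and 6.95 in HFD, and 6.24 and 6.70 in ob/ob. HFD replicate 1 lay within the LFD range, and the difference was 1.12 (SE 0.41, 2.17-fold, adjusted p = 0.214) in HFD and 1.01 (SE 0.46, 2.01-fold, adjusted p = 0.273) in ob/ob, and 0.58 and 0.43 with the acinar covariate. Eif2ak2 had the smallest spread in LFD of all 44 genes, at 7.79, 7.84 and 7.83, and was at 7.88, 8.41 and 8.68 in HFD and 8.29 and 8.96 in ob/ob. Its difference was 0.80 (SE 0.28, adjusted p = 0.224) in ob/ob. Oas2 and Oasl1 were more scattered, and each exceeded every LFD mouse in HFD replicate 3 alone. Oas2 read 6.08, 4.68 and 4.34 in LFD, 5.11, 5.74 and 6.23 in HFD, and 5.09 and 5.30 in ob/ob, LFD replicate 1 being the second highest of the 8 mice. Oasl1, a relative without synthetase activity, read 4.71, 4.61 and 5.40 in LFD, 4.63, 5.39 and 6.79 in HFD, and 4.24 and 5.27 in ob/ob. Oas3 had the widest spread in HFD (SD 1.14), from 3.88 in replicate 1 to 6.07 in replicate 3. Oas1a has close paralogs, and how their reads were divided could not be examined here.

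The Mx proteins are dynamin-like GTPases that trap viral nucleocapsids, and the Mx1 allele of C57BL/6 mice is known to encode no working protein, although its transcript is made. Mx1 was at 5.69, 5.89 and 4.21 in LFD, 4.84, 6.63 and 6.65 in HFD, and 5.62 and 6.78 in ob/ob. The groups overlapped, HFD replicate 1 and ob/ob replicate 1 lying below LFD replicates 1 and 2, and LFD replicate 3 was the lowest of the 8 mice. The difference for both obese groups was 0.86 (SE 0.57, adjusted p = 0.351), and -0.07 with acinar genes as a covariate. Mx2 differed by 0.37 in HFD and 0.16 in ob/ob, with SEs of 0.41 and 0.46.

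The GTPases induced by interferon gamma, of the guanylate-binding (Gbp) and immunity-related (Irg) families, act on the vacuoles of intracellular pathogens. Their median difference was 0.51 in HFD and 0.68 in ob/ob, and all 6 had a higher mean in both. Gbp3 was at 6.92, 6.85 and 6.62 in LFD, 7.11, 8.02 and 7.14 in HFD, and 7.29 and 7.78 in ob/ob, so that every obese mouse exceeded every lean mouse. Gbp7 had the largest excess of ob/ob over HFD (0.41, SE 0.42, adjusted p = 1.0). It was at 7.39, 7.80 and 6.77 in LFD, 7.26, 8.16 and 8.16 in HFD, and 7.78 and 8.76 in ob/ob, and ob/ob replicate 1 lay just under the highest LFD mouse. Against LFD the ob/ob difference was 0.95 (SE 0.42), 0.37 with the acinar covariate and 0.46 without the acinar-poor mice. Gbp2 read 7.47, 8.01 and 7.23 in LFD, 7.41, 8.86 and 7.86 in HFD, and 7.89 and 8.82 in ob/ob, and only HFD replicate 2 and ob/ob replicate 2 were above LFD. The 3 Gbp genes are neighbours on chromosome 3 (142530336 to 142638008). Igtp and Irgm2, neighbours on chromosome 11 (58199556 to 58222783), differed by 0.49 and 0.72 in HFD and by 0.41 and 0.62 in ob/ob.

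Rsad2 and Cmpk2 lie next to each other on chromosome 12 (26442743 to 26479837) and went apart. Rsad2 encodes viperin, which turns CTP into a chain terminator of viral RNA synthesis, and Cmpk2 is a mitochondrial nucleotide kinase. Rsad2 was at 6.37, 6.72 and 6.45 in LFD, 6.52, 7.61 and 8.05 in HFD, and 6.35 and 6.63 in ob/ob. It was thus high in HFD replicates 2 and 3 and at the LFD level in both ob/ob mice, although ob/ob replicate 2 exceeded every LFD mouse in 37 of the 44 genes. The difference was 0.88 (SE 0.37, adjusted p = 0.242) in HFD and -0.03 (SE 0.41) in ob/ob, and that between ob/ob and HFD was -0.9 (SE 0.41, adjusted p = 1.0), the lowest of the 44 genes. Cmpk2 was at 7.19, 6.68 and 6.71 in LFD, 7.02, 6.43 and 6.68 in HFD, and 6.53 and 6.48 in ob/ob. Its HFD values overlapped those of LFD, the ob/ob mice lay below all LFD mice, and the difference was -0.15 (SE 0.24) in HFD and -0.36 (SE 0.27, adjusted p = 0.467) in ob/ob.

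Of the other antiviral effectors, Samd9l, which restricts poxviruses and slows translation, was at 8.63, 8.82 and 8.60 in LFD, 9.03, 10.17 and 9.73 in HFD, and 9.08 and 9.65 in ob/ob. The lowest obese value was above the highest lean value, with a difference of 0.96 (SE 0.29, 1.95-fold, adjusted p = 0.183) in HFD and 0.68 (SE 0.32, adjusted p = 0.283) in ob/ob, and 0.61 in HFD with the acinar covariate. Bst2, or tetherin, which holds budding virus at the membrane, had the 2-copy ISRE stretch shown above but hardly differed. Its values were 7.57, 7.56 and 7.82 in LFD, 7.55, 8.28 and 7.33 in HFD, and 7.67 and 7.74 in ob/ob, and the differences of 0.07 (SE 0.26) and 0.06 (SE 0.29) turned to -0.01 and -0.03 when each mouse was centred on its median. HFD replicates 2 and 3 were the highest and the lowest of the 8 mice for this gene. Rtp4 was at 4.84 in HFD replicate 1 and 6.68 in HFD replicate 2, the lowest and highest of all mice, and differed by 0.32 (SE 0.42) in HFD.

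Parp14, Parp9 and Dtx3l encode ADP-ribosyl transferases and a ubiquitin ligase that work together in interferon signalling, and the 3 genes are neighbours on chromosome 16 (35831892 to 35972621). Parp14 was at 8.15, 8.55 and 7.48 in LFD, 8.79, 9.07 and 9.53 in HFD, and 8.65 and 9.20 in ob/ob. Each obese mouse exceeded each lean mouse, narrowly for ob/ob replicate 1 against LFD replicate 2, and the difference was 1.07 (SE 0.31, 2.10-fold, adjusted p = 0.181) in HFD and 0.87 (SE 0.35, adjusted p = 0.248) in ob/ob, and 0.69 in HFD with the acinar covariate. Parp9 also separated the groups, with 7.89, 8.13 and 7.89 in LFD, 8.28, 8.92 and 8.92 in HFD, and 8.37 and 8.86 in ob/ob, and a difference of 0.74 (SE 0.23, adjusted p = 0.191) in HFD. Dtx3l, the ligase that binds PARP9, left HFD replicate 1 (7.79) within the LFD range of 7.57 to 8.18. Trim25, a ubiquitin ligase that activates RIG-I, was the gene nearest to no difference in HFD (0.01, SE 0.18). It read 8.62, 8.90 and 8.83 in LFD, 8.57, 8.74 and 9.07 in HFD, and 8.79 and 8.64 in ob/ob, and its sign depended on the setting.

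Ifi27, a small protein of the mitochondrial and nuclear membranes, had a lower mean in both models, as Cmpk2 did. It was at 9.99, 10.39 and 10.40 in LFD, 10.18, 9.59 and 8.83 in HFD, and 9.76 and 9.0 in ob/ob. The mice with the lowest Ifi27, HFD replicate 3 and ob/ob replicate 2, were also the 2 poorest in acinar products, and HFD replicate 1 stayed within the LFD range. The difference was -0.72 (SE 0.35, adjusted p = 0.281) in HFD and -0.88 (SE 0.39, adjusted p = 0.266) in ob/ob, and its size depended on which mice and covariates entered the fit. In HFD it was -1.04 without HFD replicate 1 and -0.37 without HFD replicate 3, and with the acinar covariate it was -0.11 in HFD and -0.22 in ob/ob. Related genes with similar sequence lie beside Ifi27, and reads shared with them could not be examined. The remaining genes followed the general pattern. Lgals3bp, a secreted glycoprotein, was at 7.96 to 8.45 in LFD, 8.13, 9.23 and 9.46 in HFD, and 8.72 and 8.80 in ob/ob. Ifi44 differed by 0.79 (SE 0.35) in HFD and 0.31 (SE 0.39) in ob/ob, Xaf1, a promoter of apoptosis, by 0.41 (SE 0.35) and 0.71 (SE 0.39), Sp100, a nuclear body protein, by 0.56 (SE 0.39) and 0.54 (SE 0.44), and Ifi35 by 0.31 (SE 0.26) and 0.13 (SE 0.29).

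**Figure D5:**
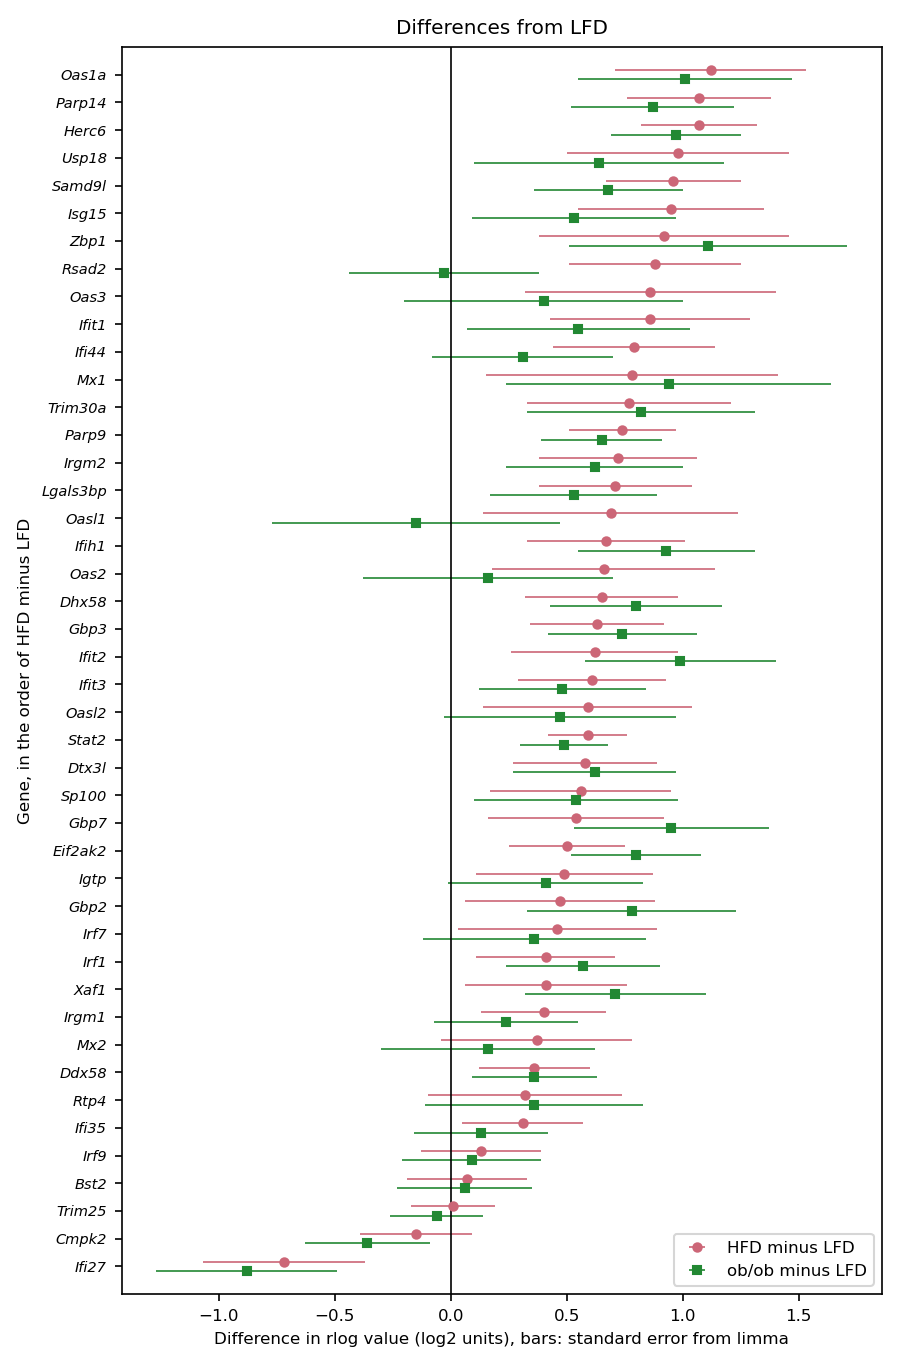
Differences in rlog value (horizontal axis, log2 units) of HFD minus LFD (circles) and ob/ob minus LFD (squares) for each of the 44 interferon-stimulated genes (vertical axis, ordered by HFD minus LFD), with the standard error from limma as bars. The circles lie above 0 for 42 genes and the squares for 39, Ifi27 is lowest in both, and for Rsad2 and Oasl1 the HFD value is above 0 and the ob/ob value below it.

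The 2 obese models were not separated by these genes. In ob/ob compared to HFD the median difference was -0.1, against 0.01 for all genes, 15 of 44 genes had a higher mean in ob/ob (34.1%, against 51.7%), and none was called by limma at the adjusted (0.0% of all genes) or the unadjusted threshold (2.28% of all genes higher, 1.63% lower). In no gene were the groups free of overlap, against 7.92% of all genes higher and 5.42% lower. The lowest differences were those of Rsad2 (-0.9), Oasl1 (-0.84, SE 0.62) and Oas2 (-0.5, SE 0.54), and the highest those of Gbp7 (0.41), Ifit2 (0.37, SE 0.41) and Gbp2 (0.31, SE 0.45). Without HFD replicate 1 the median was -0.39 and 9 genes were lower in ob/ob at the unadjusted threshold (4.17% of all genes). The sign of the median changed without HFD replicate 2 (0.1), HFD replicate 3 (0.02) or ob/ob replicate 1 (0.12), so that an order between the models was not detectable.

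Upstream of these genes, 42 of 59 listed genes of interferon sensing and signalling had a value. None of the 15 listed interferon genes was among the genes analysed here. None of the 42 passed the adjusted threshold by limma in any comparison against LFD. At the unadjusted threshold 10 were higher in HFD and none lower (11.5% and 8.35% of all genes), and 9 were higher in ob/ob and 1 was lower (11.6% and 7.18%). Ifnar1, a chain of the type I receptor, was at 8.52, 8.64 and 8.42 in LFD, 8.83, 9.39 and 9.48 in HFD, and 9.11 and 9.82 in ob/ob. Every obese mouse exceeded every lean mouse, and the difference was 0.71 (adjusted p = 0.202) in HFD and 0.93 (adjusted p = 0.200) in ob/ob. The other chain, Ifnar2, was at 7.77, 7.80 and 7.65 in LFD, 7.83, 8.34 and 8.25 in HFD, and 8.11 and 8.58 in ob/ob. Ifngr1, the ligand-binding chain for interferon gamma, was at 8.96, 9.19 and 8.89 in LFD, 9.39, 10.31 and 9.93 in HFD, and 9.62 and 10.14 in ob/ob, again with no overlap between lean and obese mice. Its differences were 0.86 (adjusted p = 0.181) in HFD and 0.87 (adjusted p = 0.210) in ob/ob. Ifngr2 was at 8.81, 8.42 and 8.94 in LFD, 9.05, 9.22 and 9.49 in HFD, and 8.82 and 9.19 in ob/ob. It differed by 0.53 in HFD, with all HFD mice above LFD, and by 0.28 in ob/ob. The receptor chains for interferon lambda are Ifnlr1 and Il10rb. Ifnlr1 was at 4.52, 5.49 and 4.22 in LFD, 4.93, 5.49 and 5.68 in HFD, and 5.21 and 4.05 in ob/ob. Il10rb was at 9.21, 9.25 and 9.34 in LFD, 9.19, 9.05 and 9.08 in HFD, and 9.15 and 9.29 in ob/ob. Ifnlr1 differed by 0.62 in HFD and -0.11 in ob/ob. Il10rb differed by -0.16 in HFD, with all HFD mice below LFD, and by -0.05 in ob/ob.

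The kinase Jak2 was at 9.09 to 9.19 in LFD, 9.17, 10.07 and 10.40 in HFD, and 9.47 and 9.63 in ob/ob, whereas Jak1 and Tyk2 differed by 0.07 or less. Unc93b1, which carries nucleic acid-sensing Toll-like receptors to endosomes, was at 8.54, 8.81 and 8.01 in LFD, 8.64, 9.69 and 9.48 in HFD, and 9.55 and 10.03 in ob/ob, with a difference of 1.34 (adjusted p = 0.189) in ob/ob. Traf3, an adaptor on the way to interferon transcription, was at 7.96, 7.73 and 7.64 in LFD, 8.12, 8.31 and 8.36 in HFD, and 7.87 and 8.18 in ob/ob, with all HFD mice above LFD (0.49, adjusted p = 0.214). Irf5 and Tlr4 are both known from macrophages. The summed level of the macrophage markers given above was also higher in the obese mice, although their part in these differences was not tested. Irf5 was at 6.67, 7.11 and 6.07 in LFD, 6.91, 8.12 and 7.94 in HFD, and 7.58 and 8.39 in ob/ob. Tlr4 was at 8.13, 7.61 and 7.67 in LFD, 7.97, 8.95 and 8.58 in HFD, and 8.53 and 9.09 in ob/ob. Irf5 thus differed by 1.04 in HFD and 1.37 in ob/ob, and Tlr4 by 0.70 and 1.00. Tnfaip3, an inhibitor of inflammatory signalling also known as A20, was at 6.80, 7.09 and 6.25 in LFD, 7.23, 8.50 and 8.77 in HFD, and 7.21 and 8.35 in ob/ob, above LFD in every obese mouse, with a difference of 1.46 (adjusted p = 0.192) in HFD. Irf3, the factor that starts transcription of interferon beta, was the gene lower in ob/ob. It was at 8.80, 8.96 and 9.17 in LFD, 8.74, 8.67 and 8.35 in HFD, and 8.45 and 8.19 in ob/ob, and both ob/ob mice and all HFD mice lay below all LFD mice (-0.66, adjusted p = 0.209, in ob/ob).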

How the data were processed

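Pancreas RNA of 8 mice, labelled LFD (n = 3), HFD (n = 3) and ob/ob (n = 2), was compared. The authors quantified transcripts of Gencode M18 (GRCm38.p6) with Salmon 0.11.3, summed them per gene with tximport, applied the rlog transformation (DESeq2 1.22.2) and deposited the resulting log2 values for 15047 gene symbols. The filter that left these genes is not given in the sources used here. The rlog step shrinks differences at low expression, and Salmon divides reads between similar transcripts by probability, so paralogs are uncertain. The depth of each mouse is unknown, and neither counting intervals nor count tests were used.

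From these values, differences were tested in limma 3.58.1 (R 4.3.3) fitting group means to the 8 mice together with a variance trend, and p-values were adjusted by Benjamini-Hochberg over all genes, with a threshold of 0.05. Replicates are different mice, with 1 tissue sample each. Comparisons against LFD share the LFD mice. The procedure was tested on simulated data. Members and lists (pathway, cell markers) were chosen with earlier results of these data known. Values per mouse were given for the 4 transcription factors, the 5 largest differences each way and the 3 nearest to 0 per comparison against LFD, the 3 largest each way for ob/ob against HFD, all receptors and the 5 pathway genes with the smallest p-values. Values of further genes were added after they were seen, and those of 1 pathway gene are not reported here. Alternatives were the variance trend, the groups fitted, a minimum mean of 5, 2 scalings, a replicate block, acinar genes as a covariate, leaving out the 2 acinar-poor mice, and leaving out each mouse. Positions and promoters came from RefSeq (GRCm38.p6), summaries from pandas 2.3.3 and figures from Matplotlib 3.10.9.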

Additional observations from a re-analysis of the deposited data

How the results depend on the processing

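The depth of the libraries is unknown, so it could not be said which differences sequencing depth limits, and with 2 or 3 mice in a group 1 mouse decided many calls. For HFD against LFD the number of genes past the adjusted threshold ranged from 0 to 19 when each mouse was left out in turn, the number higher at the unadjusted threshold from 5 to 35 and the number lower from 0 to 1. For ob/ob against LFD the unadjusted numbers ranged from 0 to 16 higher and 0 to 1 lower, for ob/ob against HFD from 0 to 9 lower with a median between -0.39 and 0.12, and for both obese groups from 0 to 19 adjusted, 5 to 34 higher and 0 to 1 lower. The largest of these counts came without HFD replicate 1. The shares of all genes there were, for HFD, 18.7% adjusted, 19.8% higher and 16.4% lower. They were 15.4% higher in ob/ob and 4.17% lower in ob/ob against HFD. For both they were 22.1% adjusted and 21.2% higher. When each mouse was left out in turn, the difference ranged, for HFD, from -0.31 to 0.01 in Cmpk2, -0.13 to 0.12 in Trim25, -0.1 to 0.42 in Irf9 and -0.21 to 0.26 in Bst2. For ob/ob it ranged from -0.17 to 0.11 in Rsad2, -0.67 to 0.36 in Oasl1, -0.0032 to 0.18 in Irf9 and -0.14 to 0.01 in Trim25, for ob/ob against HFD from -0.15 to 0.77 in Gbp2, -0.13 to 0.88 in Ifit2 and -0.08 to 0.9 in Gbp7, and for both obese groups from -0.11 to 0.03 in Trim25, -0.0036 to 0.26 in Irf9 and -0.08 to 0.16 in Bst2.

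With acinar genes as a covariate the medians were 0.15 (HFD), 0.07 (ob/ob) and 0.14 (both). At the unadjusted threshold 5, 1 and 2 genes were higher (6.02%, 6.35% and 6.73% of all genes). The number lower was 1 in ob/ob (3.6%), 0 for both (4.42%) and 2 in ob/ob against HFD (3.57%). The sign then changed for Irf1 (-0.02), Irf7 (-0.16), Irf9 (-0.14) and Trim25 (-0.1) in HFD, Irf7 (-0.31) and Irf9 (-0.2) in ob/ob, and Irf7 (-0.24), Irf9 (-0.17) and Mx1 (-0.07) for both. Without both acinar-poor mice 1 gene was higher in ob/ob (4.9% of all genes). For both, 4 were higher (8.36%) and 0 lower (4.75%). Trim25 was then -0.13 in HFD and 0.01 in ob/ob, Irf9 -0.0032 in ob/ob, and Ifit2 and Gbp2 -0.15 and -0.24 in ob/ob against HFD. With median centring, which moved the median of all genes to -0.05, 1 gene was lower in ob/ob (9.15% of all genes) and 1 in ob/ob against HFD (1.71%). Bst2 was then -0.01 (HFD), -0.03 (ob/ob) and -0.02 (both), Trim25 -0.07 (HFD) and Irf9 -5.3e-05 (ob/ob). With quantile normalization 5 genes were higher in ob/ob (9.7% of all genes) and 1 lower in ob/ob against HFD (1.75%), and Trim25 was 0.01 for both. Fitting only LFD and ob/ob gave 16 higher and 1 lower, against 14.8% and 11.3% of all genes. The causes of these changes were not tested, except that leaving out a mouse changes the samples themselves.

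Replicate numbers are shared between groups, but deviations of same-numbered LFD and HFD mice correlated at -0.0595, 0.113 and -0.281 over genes, those of LFD and ob/ob mice at -0.0967 and 0.128, and those of HFD and ob/ob mice at 0.592 and 0.303. With 2 ob/ob mice, the deviations of 1 mirror those of the other, as for HFD replicate 1 (0.592 and -0.592). Correlations with ob/ob mice therefore cannot tell pairing from any other shared difference. The labels give the numbers no meaning and not every pair was above 0.1, so the mice were not taken as paired. With the number as a replicate block, 15 genes were higher in HFD (12.7% of all genes) and 18 for both (15.7%). In ob/ob 12 were higher (12.5%) and 1 lower (9.04%). Oasl1 (0.27), Rsad2 (0.12) and Trim25 (0.02) changed sign in ob/ob, as did Trim25 (0.01) for both. No other setting changed a sign. A rule for each kind of value classed 906 of 1008 as the same, but this tally does not measure stability. Several alternatives, such as the variance trend or the minimum mean, cannot change a difference between group means. No named gene passed the adjusted threshold in the main fit. A difference was therefore classed as the same if it kept its sign and did not pass. Ifi27 in HFD was classed so although it moved from -0.72 to -0.11 with the acinar covariate. Of the differences of named genes, 694 kept their sign and side of the adjusted threshold, 44 changed sign and 14 newly passed it. The other 212 classed as the same were counts and medians. For a median this meant the same sign and a move of less than 0.41, and for a count a change within a set factor.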
